A study of Mus musculus with 16 samples.

Results

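The 8 genes described here encode surface proteins that are used to sort progenitor cells: the Ly6 antigens Ly6a (Sca-1), Ly6c1 and Ly6e, the sialomucin Cd34, the hyaluronan receptor Cd44, the small glycoprotein Cd24a, the PDGF receptor Pdgfra and the adhesion molecule Vcam1. They are 8 of the 24497 genes to which the transcripts of the deposited tables could be assigned, and all 8 passed the filter on low counts that left 14972 genes for testing. The genes were selected on their measured levels in all 8 groups of the series, so their levels and differences are given below as descriptions with no p-value. How many of them lie past the threshold used for all genes is printed only beside the share of all genes that do. The gene lists set beside them were also chosen with earlier results of these data known. From these lists the genes with the largest changes are named. Their p-values are therefore not independent evidence.

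RNA came from C2C12, a mouse skeletal muscle cell line that the labels give as C57BL/6, post natal day 21. Poly(A)-enriched libraries were sequenced as read pairs, and each of 8 groups had 2 libraries, 16 in all. The groups combine a genotype label, a stably transfected vector and a culture state. They are MYOD-/- with MUNC, MYOD-/- with EV, WT with MUNC and WT with EV, each as differentiating cells (DM, written DM3 in the series text) and as proliferating cells (GM). EV is the control vector without insert, MUNC is a vector that overexpresses the spliced form of the noncoding RNA MUNC, which is transcribed upstream of Myod1 and is listed as Gm45923, and MYOD-/- cells were made with CRISPR-Cas9 and screened from single cells. Each genotype and vector is therefore 1 stably transfected line, and a difference between lines cannot be told apart from a difference between clones or transfections. No label tells whether libraries of 1 group are separate cultures, and p-values here reflect the spread between libraries only, which may be technical.

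Levels are given as CPM, counts relative to the library total and scaled between libraries by TMM, and as TPM, which are per transcript length, where genes are set beside each other. Estimated counts per library totalled about 35800000 to 108000000, with a median of 61200000. Myod1, the gene of the genotype label, went against that label: it was at 4.18 to 33.1 CPM in the 8 MYOD-/--labelled libraries and at 0.0136 to 4.06 CPM in the 8 WT-labelled ones. Where in Myod1 the edit lies was not known here, so transcript left from an edited gene cannot be told apart from an intact one, and genotypes are called "labelled" throughout. MUNC itself was at 1821 to 2670 CPM in the WT-labelled MUNC line, 43.0 to 131.6 CPM in the MYOD-/--labelled MUNC line and 1.15 to 12.4 CPM in the EV lines. The myoblast factor Myf5 was at 57.6 to 153 CPM in all libraries. It is 1 of 6 myoblast markers, which summed to 3542 and 3573 CPM in WT-labelled EV DM and 5027 to 10632 in the other groups. With EV, 2 of the 6 passed the edgeR threshold as higher in MYOD-/--labelled cells in DM and in GM (31.4 and 10.4% of all genes passed). In the WT-labelled lines 3 were higher with MUNC than EV in DM (33.3%) and 2 in GM (13.8%). In all of these contrasts 0 were lower. Differentiated muscle was followed by 7 genes, which summed to 427.5 to 676.9 CPM in the MYOD-/--labelled DM libraries. They summed to 36.6 to 95.8 CPM in WT-labelled MUNC DM and 2.65 to 9.72 CPM in WT-labelled EV DM. Markers of other cell types were mixed. Of 11 leukocyte markers 4 reached 1 CPM in a library, led by Cd53 with up to 21.9 CPM, while Ptprc stayed at or under 0.21 CPM. Of 9 endothelial markers 2 did so, Tek with up to 14.9 CPM and Cdh5 with up to 6.77, while Emcn and Tie1 were at 0 in all 16 libraries. Of 6 epithelial markers 2 did so, Krt14 with up to 22.4 CPM and Krt8 with up to 16.6, while Epcam was at 0. One gene, Zrsr1, took 0.00792 to 0.0344% of counts in the 8 libraries numbered 1 and 1.49 to 13% in the 8 numbered 2, so the 2 libraries of a group also differ by something the labels do not give.

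Ly6 proteins are small, disulfide-rich molecules tethered to the outer membrane by a glycosylphosphatidylinositol (GPI) anchor. In mice Ly6a marks hematopoietic stem cells and, in muscle, fibro-adipogenic progenitors and a fraction of myogenic cells, and Ly6a, Ly6c and Ly6e are classical genes induced by interferon. Cd34 is carried by quiescent satellite cells, Cd44 binds hyaluronan, Cd24a is a heavily glycosylated GPI-anchored ligand of Siglec receptors, Pdgfra marks fibro-adipogenic progenitors, and Vcam1 is the satellite cell ligand of integrin alpha4 beta1.

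Ly6a, Ly6c1 and Ly6e lie together on chromosome 15 (RefSeq, GRCm38.p6, the mm10 build of the submitters' processing notes), at chr15:74994877-74998031, chr15:75044018-75048920 and chr15:74955025-74959904. Because Ly6a, Ly6c1 and the neighbouring Ly6c2 are close copies, short reads can be split between them. The first 60 coding bases of each (GENCODE M21, 5′ to 3′) are shown because they make that similarity visible, with capitals for bases that differ from Ly6a at the same position.
Ly6a: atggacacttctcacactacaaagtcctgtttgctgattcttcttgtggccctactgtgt
Ly6c1: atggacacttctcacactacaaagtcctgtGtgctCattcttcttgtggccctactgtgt
Ly6c2: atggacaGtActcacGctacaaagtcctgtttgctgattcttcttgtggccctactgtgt
Ly6e: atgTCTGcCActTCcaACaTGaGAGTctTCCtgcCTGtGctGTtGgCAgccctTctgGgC
Ly6c1 differed from Ly6a at 2 of these 60 bases, Ly6c2 at 3 and Ly6e at 31. Of the 1259 31-base words in Ly6a transcripts, 276 (21.9%) were also in Ly6c1 and 84 (6.67%) in Ly6c2, and 581 of the 1758 words of Ly6c1 (33%) were in Ly6c2. Ly6e shared 0 such words with any of the 3, so its counts were not exposed to this splitting, while the division of counts among Ly6a, Ly6c1 and Ly6c2 is uncertain.

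Promoter sequence was at hand for 4 of the 8 genes, in 5 windows of 250 bases before a transcript start (RefSeq, GRCm38.p6). The window before the upstream Ly6c1 start, chr15:75048838-75049087 on the minus strand, is shown as that of a Ly6 gene whose levels move with the culture state, with a CAGCTG in capitals.
Ly6c1 upstream: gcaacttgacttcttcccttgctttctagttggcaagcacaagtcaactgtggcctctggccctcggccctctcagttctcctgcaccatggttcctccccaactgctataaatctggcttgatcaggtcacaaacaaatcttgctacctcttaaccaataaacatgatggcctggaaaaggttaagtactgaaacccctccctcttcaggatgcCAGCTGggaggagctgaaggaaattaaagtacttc
The window before Cd34, chr1:194938571-194938820 on the plus strand, is shown as that of a gene whose levels divide the lines by genotype label, and it held none of the motifs searched.
Cd34 upstream: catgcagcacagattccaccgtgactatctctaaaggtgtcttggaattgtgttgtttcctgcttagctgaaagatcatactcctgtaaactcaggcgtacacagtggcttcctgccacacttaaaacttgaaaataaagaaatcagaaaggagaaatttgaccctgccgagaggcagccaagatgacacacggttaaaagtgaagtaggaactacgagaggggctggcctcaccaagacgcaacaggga
On both strands the windows were searched for GAAA, any 2 bases and GAAA, the core of the interferon-stimulated response element, TTCNNNGAA, the gamma-activated sequence, and CAGCTG, an E-box form that MYOD binds. The only matches were the CAGCTG before Ly6c1, whose first base lay 35 bases before one start and 209 before the other in overlapping windows. Among 32851 mouse promoter windows of this length 2.98% held the first of these, 7.02% held TTCNNNGAA and 13% held CAGCTG.

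Ly6a, which encodes Sca-1, was highest in the DM cells of the WT-labelled EV line. In DM libraries 1 and 2 it stood at 190.3 and 243.7 CPM in the MYOD-/--labelled MUNC line, 260.1 and 132.9 in the MYOD-/--labelled EV line, 60.2 and 107.6 in the WT-labelled MUNC line and 2009 and 1984 in the WT-labelled EV line. In GM libraries the same lines had 55.8 and 20.4, 52.0 and 39.6, 48.2 and 34.7, and 59.2 and 54.4 CPM. In every line both DM libraries were above both GM libraries, and the GM libraries of the 4 lines ranged over 20.4 to 59.2 CPM. In bulk RNA, fewer cells of a type and less RNA per cell cannot be told apart. The log2 difference DM minus GM was 2.51 ± 0.46, 2.10 ± 0.46, 1.02 ± 0.44 and 5.13 ± 0.52 (SE, 2 libraries against 2) in that order of lines. Without MYOD-/--labelled MUNC GM replicate 1 the first was 3.41, without GM replicate 2 it was 1.92, and without MYOD-/--labelled EV DM replicate 1 the second was 1.47. By mean level the order was WT-labelled EV DM (1996 ± 17.7 CPM, SD, n = 2), then the 2 MYOD-/--labelled DM groups, which overlap (217 ± 37.7 and 196.5 ± 90.0), then WT-labelled MUNC DM (83.9 ± 33.5). The lowest 3 of the GM groups overlap each other.

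Ly6c1, a neighbouring antigen known from monocytes and endothelium, followed nearly the same order at lower levels. It was at 45.3 and 57.2 CPM in MYOD-/--labelled MUNC DM, 46.5 and 35.1 in MYOD-/--labelled EV DM, 25.5 and 49.0 in WT-labelled MUNC DM and 706.5 and 750.4 in WT-labelled EV DM. All 8 GM libraries were between 10.3 and 20.3 CPM. The DM libraries of 1 line, WT-labelled EV, thus stood apart from the other 14 libraries, with a mean of 728.4 ± 31.04 CPM (SD, n = 2). The 11 leukocyte markers summed to 21.8 to 24.2 CPM in WT-labelled EV DM and to 1.43 to 6.99 CPM in the other 7 groups. In WT-labelled EV DM most of that sum was Cd53, a tetraspanin of leukocytes, at 21.9 and 19.3 CPM, with Ptprc at 0.0658 and 0.0814. Its part in the Ly6 levels of that group was not tested. The log2 differences DM minus GM were 1.84 ± 0.31, 1.11 ± 0.31, 1.25 ± 0.31 and 5.40 ± 0.36 (SE). Per length Ly6a was the most abundant of the 8 genes in a single library, with up to 5247 TPM, against up to 2383 TPM for Ly6e and 2172 TPM for Ly6c1.

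Ly6e (Sca-2) is the Ly6 gene best known as an interferon-stimulated gene and as a receptor partner in trophoblast fusion in the mouse. It was at 681.2 and 737.9 CPM in MYOD-/--labelled MUNC DM, 867.9 and 547.4 in MYOD-/--labelled EV DM, 17.2 and 11.3 in WT-labelled MUNC DM and 2231 and 1893 in WT-labelled EV DM. In GM the values were 73.9 and 42.0, 74.2 and 35.3, 10.9 and 4.37, and 220.8 and 174.7 CPM. The WT-labelled MUNC line held the lowest 4 of the 16 libraries, and no library of another line overlapped them. Within the WT-labelled lines MUNC minus EV was −7.18 ± 0.59 in DM and −4.69 ± 0.53 in GM on the log2 scale (SE), and −5.50 in GM without MUNC GM replicate 1. Within the MYOD-/--labelled lines the same difference was 0.00 ± 0.45 in DM and 0.08 ± 0.45 in GM, and 0.71 in GM without EV GM replicate 1. DM minus GM was 3.61 ± 0.50, 3.69 ± 0.50, 0.89 ± 0.46 and 3.38 ± 0.49, and the third of these was 1.70 without WT-labelled MUNC GM replicate 1. DM libraries were above GM libraries in all 4 lines.

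**Figure D1:**
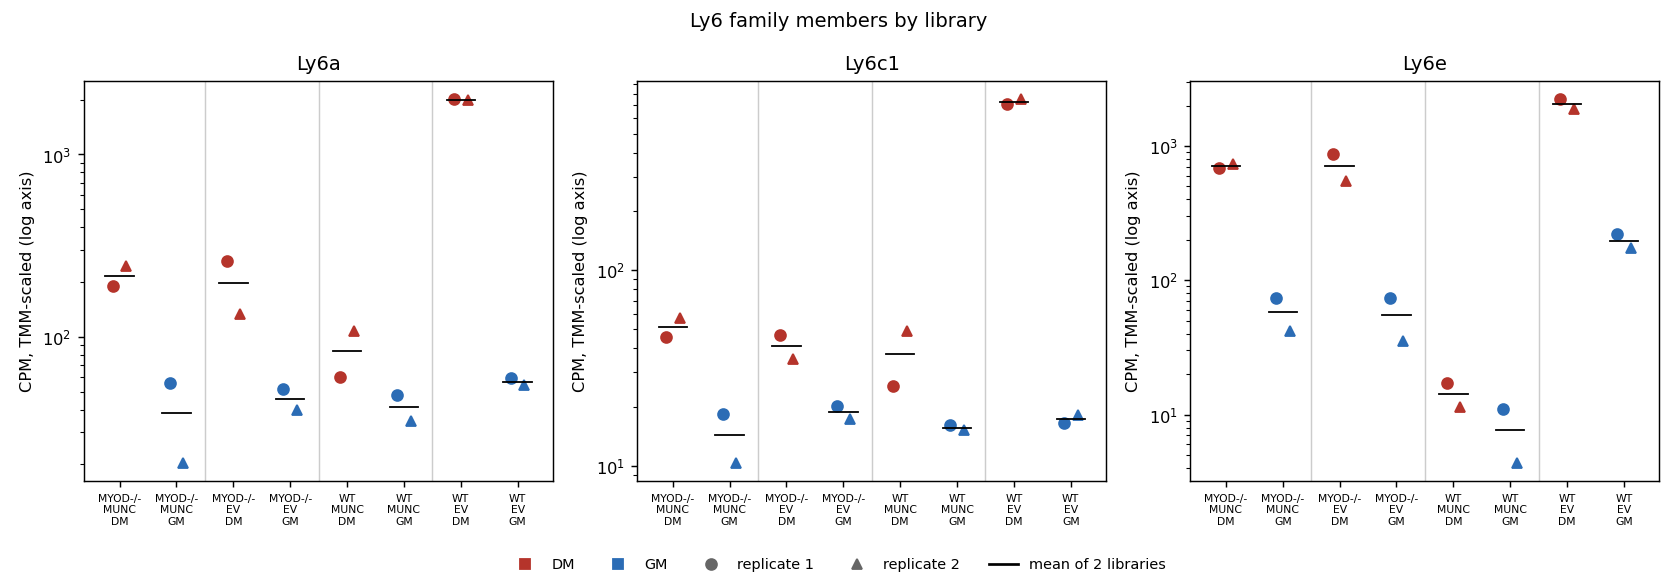
Levels of Ly6a, Ly6c1 and Ly6e in each of the 16 libraries as TMM-scaled CPM on a log axis, by genotype label, vector and culture state; circles are replicate 1, triangles replicate 2, and lines the mean of 2. The WT-labelled EV DM libraries are highest for all 3 genes (1984 to 2009 CPM for Ly6a), and the WT-labelled MUNC line is lowest for Ly6e (4.37 to 17.2 CPM).

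Cd34, the sialomucin of hematopoietic progenitors, endothelium and quiescent satellite cells, followed the genotype label and not the culture state. In the MYOD-/--labelled MUNC line it was at 151.4 and 119.7 CPM in DM and 109.3 and 181.8 in GM. In the MYOD-/--labelled EV line it was at 136.6 and 96.0 in DM and 109.2 and 196.0 in GM. All 8 WT-labelled libraries were between 1.21 and 5.18 CPM. The 2 sets of 8 libraries did not overlap, while DM and GM libraries overlapped in 3 of the 4 lines. MYOD-/--labelled minus WT-labelled was 5.40 ± 0.65 with MUNC in DM, 5.96 ± 0.67 with MUNC in GM, 5.54 ± 0.66 with EV in DM and 5.22 ± 0.65 with EV in GM (log2, SE). The MUNC values rest on low WT-labelled counts: the DM one was 6.56 without WT-labelled MUNC DM replicate 1 and 4.71 without replicate 2, and the GM one was 6.90 without WT-labelled MUNC GM replicate 1. All 4 MYOD-/--labelled groups overlapped their neighbours in the order of means, from 152.6 ± 61.4 CPM in EV GM to 116.3 ± 28.8 CPM in EV DM (SD, n = 2). Endothelial markers summed to 8.01 to 16.01 CPM in MYOD-/--labelled MUNC DM, 1.68 to 7.61 in MYOD-/--labelled MUNC GM, 4.48 to 9.32 in MYOD-/--labelled EV DM, 1.23 to 2.96 in MYOD-/--labelled EV GM and 0.19 to 1.07 in the WT-labelled libraries. In the MYOD-/--labelled libraries most of each sum was Tek or Cdh5, Pecam1 was at or under 0.251 CPM, and the part of such cells in the Cd34 values was not tested.

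Cd44, the hyaluronan receptor, was well expressed in every library, at 71.8 to 601 TPM. It was at 1129 and 1215 CPM in MYOD-/--labelled MUNC DM and 1087 and 957 in MYOD-/--labelled EV DM, against 588 and 454.8 in MYOD-/--labelled MUNC GM and 529.5 and 526.8 in MYOD-/--labelled EV GM. In the WT-labelled MUNC line it was at 314.9 and 290.4 CPM in DM and 364.9 and 309.3 in GM. In the WT-labelled EV line it was at 188.8 and 167.6 CPM in DM and 422.6 and 328.4 in GM. DM libraries were above GM libraries in both MYOD-/--labelled lines, overlapped them in the WT-labelled MUNC line and were below them in the WT-labelled EV line. On the log2 scale DM minus GM was 1.17 ± 0.16, 0.95 ± 0.16, −0.16 ± 0.16 and −1.07 ± 0.16 (SE) in that order. The libraries of the 2 MYOD-/--labelled DM groups, with means of 1172 ± 61.1 and 1022 ± 92.1 CPM (SD, n = 2), did not overlap, but MUNC minus EV there was only 0.20 ± 0.16 (log2, SE). In the order of means WT-labelled EV GM overlapped WT-labelled MUNC GM, which overlapped WT-labelled MUNC DM, while EV GM and MUNC DM did not overlap each other. One transcript of 4409 bases made up 94.3 to 97.7% of Cd44 TPM in every library, so the longer transcripts with more exons were minor throughout.

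Cd24a was a gene of 1 line. It stood at 10.4 and 12.3 CPM in WT-labelled MUNC DM and 12.1 and 14.6 in WT-labelled MUNC GM. The MYOD-/--labelled lines had 0.196 to 0.575 CPM in their 4 DM libraries and 0.601 to 2.05 in their 4 GM libraries. The WT-labelled EV line had 4 and 1 counts in its DM libraries and 10 and 2 counts in its GM libraries, close to none. Over summed counts the WT-labelled MUNC line exceeded the WT-labelled EV line 386-fold in DM (1821 against 5 counts, exact 95% interval 165 to 1191) and 126-fold in GM (1570 against 12 counts, interval 72.0 to 245). These intervals cover counting error only, not the spread between libraries. Among the MYOD-/--labelled lines MUNC minus EV was 0.33 ± 0.63 in DM and 0.41 ± 0.57 in GM (log2, SE), and the libraries overlapped. Without MYOD-/--labelled EV DM replicate 1 the DM value was 1.31, and without EV GM replicate 1 the GM value was 1.33, while it was −0.24 without MUNC GM replicate 1 and −0.18 without EV GM replicate 2.

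**Figure D2:**
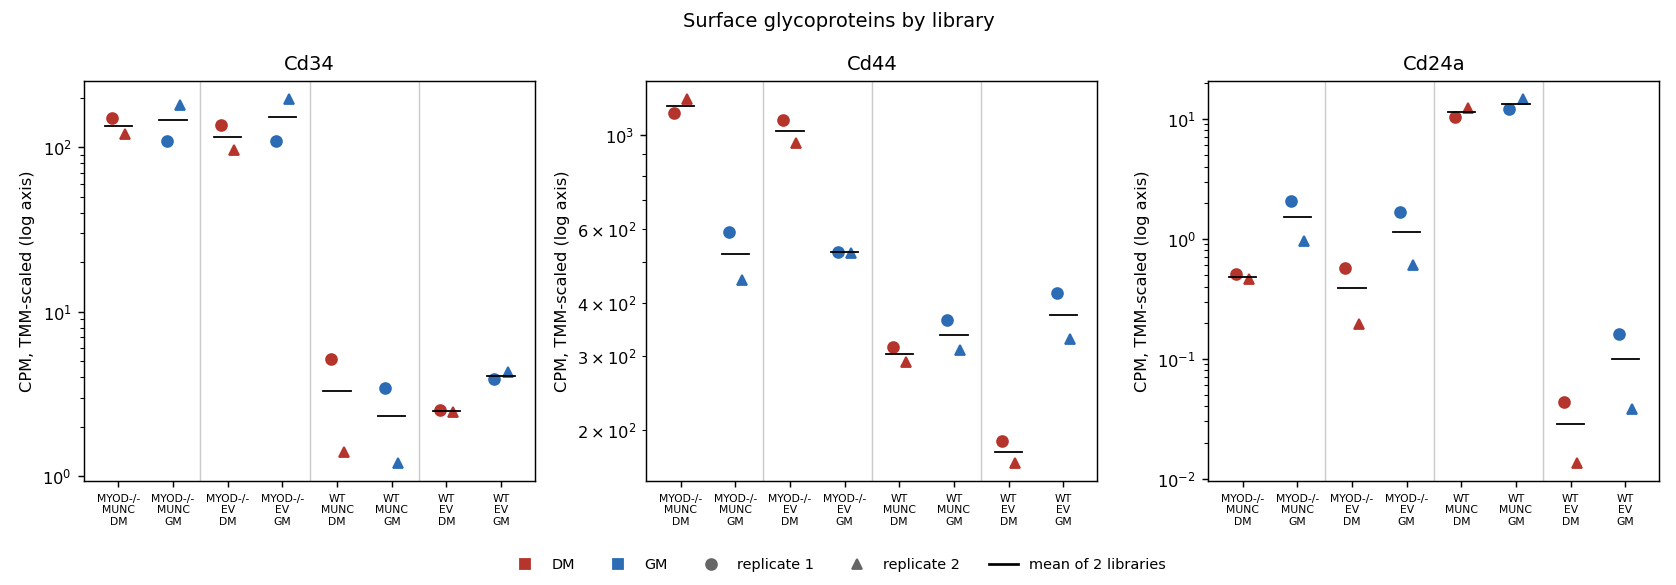
Levels of Cd34, Cd44 and Cd24a in each of the 16 libraries as TMM-scaled CPM on a log axis, with groups, symbols and mean lines as in the plot of the Ly6 genes. Cd34 separates the genotype labels (96.0 to 196.0 against 1.21 to 5.18 CPM), Cd44 moves with DM in opposite directions in the MYOD-/--labelled and WT-labelled EV lines, and Cd24a is highest in the WT-labelled MUNC line.

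Pdgfra, the receptor that defines fibro-adipogenic progenitors in muscle, was low in every library, between 0.616 and 3.73 TPM. It was at 9.68 and 3.86 CPM in MYOD-/--labelled MUNC DM, 6.98 and 4.96 in MYOD-/--labelled EV DM, 11.5 and 7.88 in WT-labelled MUNC DM and 7.95 and 9.46 in WT-labelled EV DM. In GM it was at 3.05 and 2.98, 2.84 and 2.13, 2.01 and 2.93, and 6.19 and 7.30 CPM. DM libraries were above GM libraries in all 4 lines, and the WT-labelled EV line had the highest GM level. DM minus GM was 1.16 ± 0.38, 1.26 ± 0.39, 1.98 ± 0.39 and 0.37 ± 0.38 (log2, SE), and the first was 0.32 without MYOD-/--labelled MUNC DM replicate 1. Down the order of group means the 5 highest overlap their neighbours.

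Vcam1, the integrin ligand carried by satellite cells and activated endothelium, was higher in DM and unsteady between replicates. In DM it was at 197.1 and 150.2 CPM in the MYOD-/--labelled MUNC line, 183.6 and 156.9 in the MYOD-/--labelled EV line, 184.6 and 132.5 in the WT-labelled MUNC line and 113.0 and 59.7 in the WT-labelled EV line. In GM it was at 56.5 and 3.47, 63.9 and 11.2, 37.1 and 7.51, and 62.6 and 20.4 CPM. Replicate 1 was above replicate 2 in all 8 groups, more so in GM, and Zrsr1 separates the same replicate numbers; its part in this was not tested. DM minus GM was 2.53 ± 1.15, 2.18 ± 1.14, 2.83 ± 1.16 and 1.06 ± 1.10 (log2, SE), with DM above GM in the first 3 lines and overlap in WT-labelled EV. Without GM replicate 1 of each line these became 5.65, 3.87, 4.40 and 2.08, and without GM replicate 2 they became 1.58, 1.34, 2.09 and 0.46. Within replicate 1 alone the differences were 1.80, 1.52, 2.31 and 0.85, and within replicate 2 alone 5.42, 3.81, 4.13 and 1.55. Vcam1 was higher in DM in both replicates of all 4 lines, but its size depended on the replicate.

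**Figure D3:**
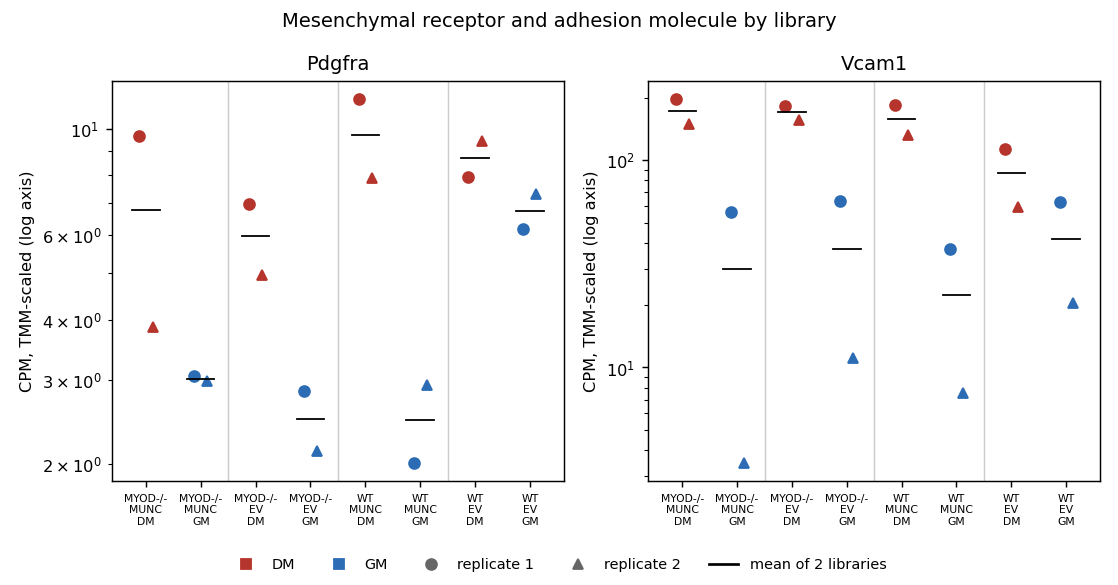
Levels of Pdgfra and Vcam1 in each of the 16 libraries as TMM-scaled CPM on a log axis, with groups, symbols and mean lines as in the plot of the Ly6 genes. Replicate 1 of Vcam1 (circles) is above replicate 2 (triangles) in all 8 groups, with the widest gap in MYOD-/--labelled MUNC GM (56.5 against 3.47 CPM).

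The members can be read against all 14972 genes tested with edgeR's quasi-likelihood test at a Benjamini-Hochberg adjusted p under 0.05; since the members were listed with these values known, nothing is drawn from their counts. For DM minus GM, 5 members were past this threshold as higher and 1 as lower in the MYOD-/--labelled MUNC line, where 44.8% of all genes passed, and 5 as higher and 0 as lower in the MYOD-/--labelled EV line, where 43.2% passed. In the WT-labelled MUNC line it was 2 higher and 0 lower, with 39.8% of all genes, and in the WT-labelled EV line 3 higher and 1 lower, with 37.5%. Without GM replicate 2 or DM replicate 1 the 5 higher in MYOD-/--labelled EV became 3, with 1 lower. The 1 lower in MYOD-/--labelled MUNC became 0 without GM replicate 1 or either DM library. The 2 higher in WT-labelled MUNC became 1 without GM or DM replicate 2. For MYOD-/--labelled minus WT-labelled, 4 members were higher and 1 lower with MUNC in DM (22.7% of all genes) and 3 higher and 1 lower with MUNC in GM (9.99%). With EV it was 3 higher and 3 lower in DM (31.4%) and 2 higher and 2 lower in GM (10.4%). The 2 lower in GM became 0 without either WT-labelled EV GM library or MYOD-/--labelled EV GM replicate 2, and 1 without MYOD-/--labelled EV GM replicate 1. The 2 higher there became 1 without WT-labelled EV GM replicate 2 or MYOD-/--labelled EV GM replicate 1, and the 1 lower with MUNC in DM became 2 without MYOD-/--labelled MUNC DM replicate 1. For MUNC minus EV in the WT-labelled lines, 2 members were higher and 3 lower in DM (33.3%) and 1 higher and 2 lower in GM (13.8%), with 1 lower in GM without any 1 of its 4 libraries. In the MYOD-/--labelled lines 0 members and 0 genes of any kind passed in DM or in GM (0.00% each), where 152 and 191 genes had an unadjusted p under 0.05, DESeq2 called 4 and 0 genes and limma on log2(TPM + 1) 7 and 3. MUNC itself was among the genes not called, at 46.7 ± 5.25 with MUNC against 7.32 ± 7.19 CPM with EV in DM. In GM it was at 118.7 ± 18.2 against 6.87 ± 7.88 CPM (SD, n = 2), a log2 difference of 4.11 ± 1.25 (SE, edgeR unadjusted p = 0.00702). The WT-labelled MUNC line had means of 2341 CPM in DM and 2023 in GM. So 0 calls here do not show that nothing differed.

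The difference between 2 lines in their DM minus GM change was fitted in the same model. Between the MYOD-/--labelled and WT-labelled lines 1 member was past the threshold as higher and 2 as lower with EV (2.58% of all genes), and 1 as higher and 0 as lower with MUNC (1.38%). The 2 lower with EV became 1 without any 1 of the 8 EV libraries. The 1 higher with MUNC became 0 without WT-labelled MUNC GM replicate 1, either WT-labelled MUNC DM library, MYOD-/--labelled MUNC GM replicate 2 or MYOD-/--labelled MUNC DM replicate 2, and 2 without WT-labelled MUNC GM replicate 2. Between MUNC and EV it was 0 higher and 2 lower in the WT-labelled lines (3.33%), and 0 in the MYOD-/--labelled lines (0.00%; 114 genes at an unadjusted p under 0.05, 0 with DESeq2 and 1 with limma). For Ly6c1 the difference was −4.28 ± 0.45 between genotype labels with EV and −4.14 ± 0.44 between MUNC and EV in the WT-labelled lines (log2, SE). Both use the WT-labelled EV libraries, so they are not separate evidence. For Cd44 the differences between genotype labels were 2.03 ± 0.23 with EV and 1.32 ± 0.23 with MUNC.

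**Figure D4:**
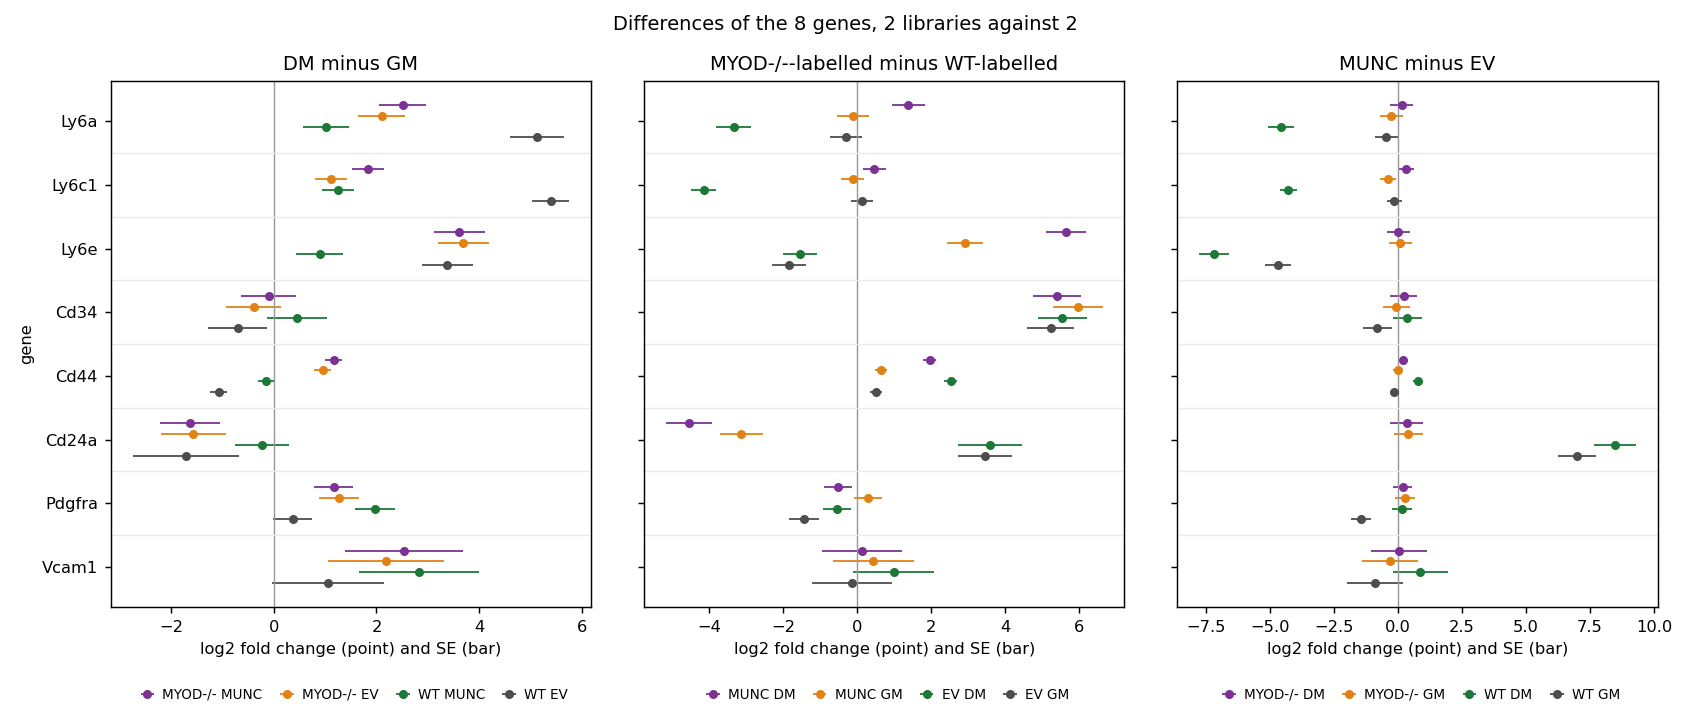
Log2 differences of the 8 genes for DM minus GM in 4 lines, MYOD-/--labelled minus WT-labelled in 4 settings and MUNC minus EV in 4 settings; points are fitted values and bars their SE, 2 libraries against 2. Cd34 lies between 5.22 and 5.96 in all 4 genotype contrasts, the Ly6 genes are farthest to the right for DM minus GM in the WT-labelled EV line apart from Ly6e, and the MUNC differences within the MYOD-/--labelled lines lie near 0.

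Ly6a, Ly6c1 and Ly6e are interferon-induced genes in mice, and 32 other interferon-response genes were followed beside them. For DM minus GM all 32 rose in the MYOD-/--labelled MUNC and EV lines and in the WT-labelled EV line (44.8, 43.2 and 37.5% of all genes passed), and 19 rose and 0 fell in the WT-labelled MUNC line (39.8%; edgeR, adjusted over all genes). Without WT-labelled MUNC GM replicate 2 the 19 became 10, and without its DM replicate 1 they became 12. The median log2 change of the list was 6.81, 6.55, 1.56 and 7.07, beside medians over all genes of 0.05, 0.08, 0.06 and 0.02. Summed over the list, levels were 6370 and 9480 CPM in MYOD-/--labelled MUNC DM, 8338 and 9007 in MYOD-/--labelled EV DM, 871.6 and 859.8 in WT-labelled MUNC DM and 16340 and 16048 in WT-labelled EV DM. The 8 GM libraries summed to 280.7 to 720.6 CPM, with the WT-labelled EV line highest. Usp18, the protease that removes ISG15, rose by 10.61 ± 0.58 in WT-labelled EV (SE, adjusted p = 8.63e-07), Mx2, an antiviral GTPase, by 9.15 ± 0.66 in MYOD-/--labelled MUNC (adjusted p = 8.49e-06) and Ifit3 by 3.79 ± 0.37 in WT-labelled MUNC (adjusted p = 3.16e-05).

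Between lines the interferon list also differed. MYOD-/--labelled minus WT-labelled, all 32 were higher with MUNC in DM (22.7% of all genes passed) and 0 passed with MUNC in GM (9.99%). In that GM contrast 9 had an edgeR unadjusted p under 0.05. DESeq2 called 4 higher and 1 lower there, and limma on log2(TPM + 1) called 0. The edgeR calls there changed when MYOD-/--labelled MUNC GM replicate 1 or 2 was left out. With EV 21 were lower in DM (31.4% of all genes passed) and 13 in GM (10.4%), and 0 were higher. Without 1 library the DM count was 9 (MYOD-/--labelled EV DM replicate 2), 11 (its replicate 1) or 13 (WT-labelled EV DM replicate 2), and the GM count 5 (MYOD-/--labelled EV GM replicate 2), 8 (its replicate 1) or 6 (WT-labelled EV GM replicate 1). MUNC minus EV, all 32 were lower in WT-labelled DM (33.3% of all genes passed) and 15 in WT-labelled GM (13.8%). The GM count was smaller without WT-labelled EV GM replicate 1 or MUNC GM replicate 2. Cxcl10, an interferon-induced chemokine, fell by 6.67 on the log2 scale in that GM contrast (SE 0.62, adjusted p = 5.41e-05). The Ly6 members and this list thus had their highest group in common. Below it the list was higher in MYOD-/--labelled DM (6370 to 9480 CPM) than in WT-labelled MUNC DM (859.8 and 871.6). Between these groups Ly6a and Ly6e were also higher in MYOD-/--labelled DM without overlap, while Ly6c1 overlapped (35.1 to 57.2 against 25.5 and 49.0 CPM). The part of an interferon response in the Ly6 levels was not tested.

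**Figure D5:**
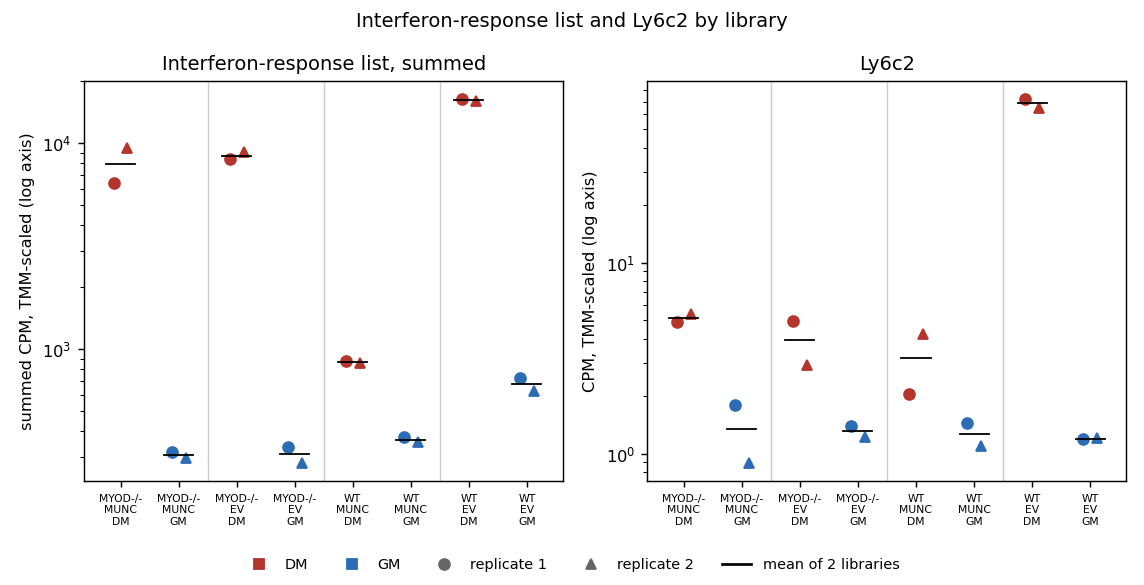
Summed level of 32 interferon-response genes (left) and level of Ly6c2 (right) in each of the 16 libraries, TMM-scaled CPM on log axes, with groups, symbols and mean lines as in the plot of the Ly6 genes. Both are highest in WT-labelled EV DM (16048 and 16340 CPM for the list, 65.0 and 72.0 CPM for Ly6c2).

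Of 37 further Ly6 and uPAR family genes, 16 passed the filter on low counts. In DM against GM, 6 rose and 1 fell in MYOD-/--labelled MUNC (44.8% of all genes passed), 6 and 2 in MYOD-/--labelled EV (43.2%), 3 and 1 in WT-labelled MUNC (39.8%) and 5 and 1 in WT-labelled EV (37.5%), with medians of 0.63, 0.85, 0.47 and 0.22. These counts lie near or under the share of all genes and are not read as a response of the family. The rises became 3 without MYOD-/--labelled EV GM replicate 2, and 1 without WT-labelled MUNC GM or DM replicate 2. In WT-labelled EV they became 3 without GM replicate 1 or DM replicate 1 and 2 without GM replicate 2. The falls in these lines lay between 0 and 2 when 1 library was left out. Ly6c2, the close copy of Ly6c1, was at 4.91 and 5.40 CPM in MYOD-/--labelled MUNC DM against 1.80 and 0.895 in GM, and at 72.0 and 65.0 CPM in WT-labelled EV DM against 1.20 and 1.20 in GM. It rose by 1.92 ± 0.38 (adjusted p = 0.00202) and 5.83 ± 0.44 (adjusted p = 5.16e-06) in these lines. Its rises of 1.59 in MYOD-/--labelled EV and 1.32 in WT-labelled MUNC were not past the threshold without MYOD-/--labelled EV GM replicate 2 or DM replicate 1 and without WT-labelled MUNC GM or DM replicate 2. Lynx1, a modulator of nicotinic acetylcholine receptors, rose by 1.28 ± 0.21 and 1.32 ± 0.21 in the MYOD-/--labelled MUNC and EV lines (adjusted p = 0.000696 and 0.000592). Plaur, the urokinase receptor, fell by 3.47 in the WT-labelled MUNC line (SE 0.77, adjusted p = 0.00438). It was at 6.67 and 9.91 CPM in DM there, against 47.3 and 137 in GM.

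Among 23 other markers of mesenchymal progenitors 19 were tested. Relative to GM, 10 rose and 2 fell in MYOD-/--labelled MUNC (44.8% of all genes passed), 9 and 0 in MYOD-/--labelled EV (43.2%), 9 and 0 in WT-labelled MUNC (39.8%) and 5 and 0 in WT-labelled EV (37.5%), with medians of 0.92, 1.36, 1.33 and 0.38. Without MYOD-/--labelled MUNC DM replicate 1 the 10 became 5, its 2 falls became 0 without either DM library or GM replicate 2, and 2 fell in MYOD-/--labelled EV without GM replicate 1. In WT-labelled EV the 5 became 3 without GM replicate 1 or DM replicate 2 and 2 without GM replicate 2. Dcn, the collagen-binding proteoglycan decorin, was at 938.1 and 434.3 CPM in MYOD-/--labelled MUNC DM against 4.80 and 0.84 in GM, a rise of 7.91 ± 1.51 (adjusted p = 0.00159). Osr1, a transcription factor of connective tissue progenitors, rose in all 4 lines, by 2.51, 2.26, 1.94 and 2.11 (SE 0.42 to 0.44, adjusted p = 0.000916, 0.00165, 0.00389 and 0.00291). Sema3c, a secreted semaphorin, differed between genotype labels with EV in DM, at 1043 and 722.7 CPM in MYOD-/--labelled EV DM against 2.11 and 1.11 in WT-labelled EV DM (log2 difference 9.09 ± 1.40 SE, adjusted p = 0.000743).

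Of 19 genes of satellite and reserve cells 15 were tested. In DM cells 4 rose and 1 fell in MYOD-/--labelled MUNC (44.8% of all genes passed), 6 and 1 in MYOD-/--labelled EV (43.2%), 2 and 0 in WT-labelled MUNC (39.8%) and 1 and 4 in WT-labelled EV (37.5%). These counts too lie near or under the share of all genes. The 4 became 9 without MYOD-/--labelled MUNC GM replicate 1, the 6 became 3 without MYOD-/--labelled EV GM replicate 2, and the 4 falls became 1 or 2 without any 1 WT-labelled EV library. Ncam1, a neural cell adhesion molecule of muscle precursors, rose by 1.24 ± 0.22 and 1.36 ± 0.22 in the MYOD-/--labelled lines (adjusted p = 0.000936 and 0.000558). In WT-labelled EV it fell by 0.80 (SE 0.21, adjusted p = 0.0129), and leaving out GM replicate 1 or 2 or the second DM library brought that adjusted p to between 0.0507 and 0.0883. The difference between these responses with EV was 2.15 ± 0.30 (adjusted p = 0.00705, and 0.0505 without WT-labelled EV DM replicate 2), and Cd44 had the same signs in these lines.

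The list of 25 ligands and partners of the receptors among the 8 genes had 21 tested. For DM minus GM 5 rose and 7 fell in MYOD-/--labelled MUNC (44.8% of all genes passed), 6 and 5 in MYOD-/--labelled EV (43.2%), 4 and 5 in WT-labelled MUNC (39.8%) and 3 and 6 in WT-labelled EV (37.5%). Without 1 library of the line the rises ranged over 2 to 5, 2 to 6, 3 to 4 and 0 to 2, lowest without GM replicate 2 in the first, second and last of these lines. The falls ranged over 4 to 6, 3 to 6, 5 to 5 and 4 to 6, lowest without GM replicate 2 or DM replicate 1 in both MYOD-/--labelled lines. Siglecg, a Siglec known from B cells that binds CD24, moved in opposite directions, with 133.3 and 109.4 CPM in MYOD-/--labelled MUNC DM against 47.1 and 38.9 in GM, and 0.275 and 0.651 CPM in WT-labelled MUNC DM against 5.91 and 7.71 in GM. It rose by 1.496 ± 0.25 on the log2 scale in the first line (adjusted p = 0.000657) and fell by 3.78 in the second (SE 0.30, adjusted p = 1.66e-05). Itgb7, an integrin beta chain whose alpha4 dimer binds VCAM1, fell by 4.56, 4.20 and 3.90 in MYOD-/--labelled MUNC, MYOD-/--labelled EV and WT-labelled MUNC (SE 0.81 to 0.83, adjusted p = 0.00124, 0.00187 and 0.00294). Has2, which makes the hyaluronan that CD44 binds, fell by 2.02 in WT-labelled MUNC (SE 0.38, adjusted p = 0.00161).

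Of 28 genes of GPI anchor synthesis and remodelling, on which the Ly6 proteins and CD24 depend, 26 were tested. For DM minus GM 9 rose and 5 fell in MYOD-/--labelled MUNC (44.8% of all genes passed), 9 and 3 in MYOD-/--labelled EV (43.2%), 5 and 3 in WT-labelled MUNC (39.8%) and 5 and 2 in WT-labelled EV (37.5%). Without 1 library the rises ranged over 4 to 8, 3 to 6, 2 to 3 and 2 to 4, lowest without DM replicate 1 in the first, GM replicate 2 or DM replicate 1 in the second, GM replicate 1 or DM replicate 2 in the third and GM replicate 2 in the last. Piga, the catalytic subunit of the first step, fell in all 4 lines by 1.06, 1.20, 1.32 and 0.84 (SE 0.15, adjusted p = 0.000303, 0.000145, 9.16e-05 and 0.00147). Pigh, another subunit of the same enzyme, rose in 3 of the 4, by 1.48 ± 0.22, 1.21 ± 0.22 and 0.99 ± 0.22 in MYOD-/--labelled MUNC, MYOD-/--labelled EV and WT-labelled EV (adjusted p = 0.000328, 0.00112 and 0.00438). Its 5 falls in MYOD-/--labelled MUNC became 3 without GM replicate 2. The median log2 change of the list was between 0.09 and 0.28 in the 4 lines.

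Likeness of pattern was measured as the root mean square difference between centred log2 levels over the 8 groups, among 10135 genes of at least 5 CPM on average. Ly6c2 was nearest to Ly6a (0.33) and to Ly6c1 (0.18), and H2-Q4, a class I histocompatibility gene, was next for Ly6a (0.35). Among the members themselves Ly6a and Ly6c1 were nearest (0.36), followed by Pdgfra and Vcam1 (0.95), and Cd24a and Ly6e were farthest apart (5.23). For Ly6e the nearest were Oasl1 (0.54), an interferon-induced OAS-like protein, Apol9b (0.65) and Tlr3 (0.84), a receptor for double-stranded RNA. Cd44 was nearest to Rassf3 (0.12), Ncam1 (0.26) and Heg1 (0.27). Pdgfra was nearest to Fbxl7 (0.22) and Vcam1 to Mturn (0.27), while the nearest of Cd34 (Slc8a1, 0.95) and Cd24a (Kcnf1, 0.84) were less alike. These are descriptions over 8 group means from shared libraries, and Ly6a, Ly6c1 and Ly6c2 share sequence.

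Within genes, transcript shares give the length class behind each level. The 971-base transcript made up 55.1 to 81.8% of Ly6a TPM and the 1002-base one 15.7 to 43.3%. For Ly6c1 the 865-base transcript made up 88.8 to 95.8%, for Ly6e the 2070-base one 57.1 to 72.1%, and for Cd34 the 2465-base one 61.5 to 87%. Cd24a and Vcam1 have 1 transcript each in the tables. The Pdgfra share of its 6602-base transcript, 51.3 to 97.5%, had the widest range of these.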

How the data were processed

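Per the labels' protocols, poly(A)-enriched RNA from 16 libraries was made into directional libraries and sequenced as read pairs. The submitters' processing notes name kallisto, bcl2fastq and the build mm10, without versions or a strand setting that could be used here. The authors deposited, per the file headers, an estimated count and a TPM for each RefSeq transcript in each library. Of 35818 transcripts, 35492 were matched to symbols through a RefSeq table and 188 through GENCODE M21; the other 138 (0.28 to 0.941% of counts) were left out. Listed genes without an entry were Ly6g2 and Pigy.

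Estimated counts were summed per gene, rounded to whole numbers, filtered with filterByExpr, scaled by TMM and fitted in 1 quasi-likelihood model of edgeR 4.0.16 (R 4.3.3) with a mean for each of 8 groups. P-values were Benjamini-Hochberg adjusted over 14972 genes, with a threshold of 0.05. SEs are the log2 fold change divided by the square root of F. The scripts were tested on simulated data. The 8 genes and all gene lists were chosen with earlier results of these data known. From each list, up to 3 genes each way per comparison with the largest change past the threshold and a mean of at least 5 CPM could be named. Alternatives were DESeq2 1.42.0, its size factors in edgeR, no filter, limma 3.58.1 on log2(TPM + 1) and on log2(TPM + 0.1), a replicate block, and leaving out each library. Groups of 2 libraries are too small to test for an outlying one.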

Additional observations from a re-analysis of the deposited data

Results flagged for a closer look

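Several genes differed between lines in their DM minus GM change, tested as an interaction in edgeR's quasi-likelihood model and given as log2 differences. They were named for their size from lists chosen with earlier results known, so their p-values are not independent evidence. Between MYOD-/--labelled and WT-labelled EV lines the difference was −4.25 for Ly6c2 (adjusted p = 0.005), 2.15 for Ncam1 (0.00705), 2.62 for Siglecg (0.00512), 2.95 for Ifit1 (0.0487), 0.99 for Ifitm3 (0.0267) and −3.40 for Mx1 (0.02). Between MYOD-/--labelled and WT-labelled MUNC lines it was 3.96 for Sdc3 (adjusted p = 0.0381), 5.27 for Siglecg (0.000192), −1.19 for Pgap1 (0.0225), 7.96 for Usp18 (0.0263), 6.85 for Ifi44 (0.0397) and 6.74 for Igtp (0.00583). Without WT-labelled MUNC GM replicate 1 the adjusted p of Usp18, Ifi44 and Igtp was 0.654, 0.597 and 0.224.

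Between the MUNC and EV lines with the WT label the same kind of difference was −4.51 for Ly6c2 (adjusted p = 0.0013), −5.24 for Sdc3 (0.00601), 1.29 for Pdgfa (0.0476), −2.45 for Siglecg (0.00537), 1.29 for Pgap1 (0.00855), −9.55 for Usp18 (0.00846), −8.43 for Ifi44 (0.0108) and −8.24 for Mx1 (0.000148). Without WT-labelled MUNC GM replicate 1 the adjusted p of Usp18 was 0.392 and that of Ifi44 was 0.333.

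In other cases the libraries of 2 contrasts lay on opposite sides, and that difference was not tested. MYOD-/--labelled minus WT-labelled, Ly6a in DM was 1.37 with MUNC and −3.35 with EV, and Ly6e was 5.64 with MUNC and −1.54 with EV in DM and 2.92 and −1.85 in GM. For Cd24a the same contrast was −4.55 with MUNC and 3.59 with EV in DM, and −3.14 and 3.44 in GM. With limma on log2(TPM + 1), which understates changes of low genes, its EV values were 0.51 in DM and 0.97 in GM, and with log2(TPM + 0.1) they were 2.02 and 2.62. Pdgfra in GM was 0.29 with MUNC and −1.44 with EV. For MUNC minus EV in GM, Pdgfra was 0.28 in the MYOD-/--labelled lines and −1.45 in the WT-labelled lines. DM minus GM, Cd44 was 0.95 in the MYOD-/--labelled EV line and −1.07 in the WT-labelled EV line, a fitted difference of 2.03 ± 0.23 (log2, SE).

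Also lost without at least 1 single library were the tested differences of Ifit1, Ifitm3 and Mx1 between genotype labels with EV, of Sdc3 and Pgap1 with MUNC, and of Pdgfa and Pgap1 between the WT-labelled lines. Single libraries moved some of these sizes by over 1.5 times, with no change of sign. Without MYOD-/--labelled EV DM replicate 1, Ly6a with EV in DM was −3.94 and Cd24a 2.60, and without WT-labelled EV DM replicate 1 Cd24a was 4.59. In GM with EV, Cd24a was 2.56 without MYOD-/--labelled replicate 1, 4.05 without MYOD-/--labelled replicate 2, 4.83 without WT-labelled replicate 1 and 2.80 without WT-labelled replicate 2, and Ly6e was −2.44 without MYOD-/--labelled replicate 1. In GM with MUNC, Ly6e was 3.73 without WT-labelled replicate 1 and Cd24a −3.79 without MYOD-/--labelled replicate 1.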

How the results depend on the processing

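None of the named genes outside the 8 changed sign under the alternatives run. Of the 8, each of which has 16 fitted differences, signs turned in 66 of 2048 values refitted without 1 library, 5 of 128 under each limma fit and 1 of 128 under the replicate block. Most of the 2048 refits left out a library that the difference does not use, so 66 of 2048 understates the weight of single libraries. No value that turned was above 1.16 in size, and the largest that did were of Cd34 and Vcam1; for example Vcam1 MYOD-/--labelled minus WT-labelled with MUNC in GM, 0.43, was −2.70 without MYOD-/--labelled MUNC GM replicate 1 and −0.19 with limma on log2(TPM + 0.1). The size moved by over 1.5 times in 114 values refitted without 1 library of the difference. It did so in 20 values with limma on log2(TPM + 1), 12 with log2(TPM + 0.1) and 1 under the replicate block. Counts of calls over all genes moved by over 1.5 times in the following cases, whose cause was not tested. For MUNC minus EV in the MYOD-/--labelled lines, where edgeR called 0, DESeq2 called 4 in DM, edgeR without a filter 2 in DM, limma on log2(TPM + 1) 7 in DM and 3 in GM, and limma on log2(TPM + 0.1) 6 in DM and 4 in GM; the difference of their DM responses had 1 call with limma on log2(TPM + 1). The 387 calls for the response between genotype labels with EV became 994 with DESeq2, 1046 and 757 with the 2 limma fits; the 206 with MUNC became 497, 563 and 379; and the 499 between MUNC and EV in WT-labelled lines became 1155 with DESeq2 and 944 with limma on log2(TPM + 1).

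The main model did not pair libraries by replicate number. Deviations of same-numbered libraries still correlated at −0.0126 to 0.712 over 28 pairs of groups (median 0.255), above 0.1 in 23. Differences shared by a replicate number therefore stay in the spread of the main model and can widen its SEs. With a replicate block the genotype contrasts in GM had 2379 calls with MUNC and 2405 with EV, against 1496 and 1550, and the responses had 388, 898 and 1033 calls against 206, 387 and 499. In the genotype contrast with EV in GM, 3 members were higher and 2 lower under the block, where 2405 of 14972 genes were called. The main model had 2 higher and 2 lower there, where 1550 genes were called. More members were also higher under the block in DM minus GM in both MYOD-/--labelled lines and WT-labelled MUNC. Those counts are left out, because the share of all genes called there under the block is not given. Nothing is drawn from the rise. Of the 212 calls of named genes 0 were lost under the block, 24 with limma on log2(TPM + 1), 20 with log2(TPM + 0.1), 6 without a filter, 2 with DESeq2 size factors and 1 with DESeq2.

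Leaving out 1 library at a time, calls for DM minus GM ranged over 4839 to 6767, 4290 to 6797, 4015 to 6294 and 3833 to 5987 in MYOD-/--labelled MUNC, MYOD-/--labelled EV, WT-labelled MUNC and WT-labelled EV. Genotype contrasts ranged over 1593 to 3727 and 607 to 1573 with MUNC in DM and GM, and 2606 to 5148 and 700 to 1676 with EV. MUNC contrasts ranged over 0 to 0 in the MYOD-/--labelled lines and 3140 to 5470 and 963 to 2226 in the WT-labelled ones. Responses ranged over 59 to 279, 57 to 475, 198 to 621 and 0 to 0. Of 3392 refitted calls of named genes 352 were lost. Most of these refits left out a library that the call's contrast did not use, so the share lost understates the weight of single libraries. On the TPM scale the median of all genes in DM minus GM was 0.187 against 0.0486 in MYOD-/--labelled MUNC and 0.186 against 0.0848 in MYOD-/--labelled EV. With 2 libraries a group, Cd24a in the WT-labelled EV line (1 to 10 counts a library) and Pdgfra are limited by depth.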
